A study of Mus musculus with 2 samples.

Results

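The integrated stress response joins several kinds of stress to a single switch in protein synthesis. Kinases such as PERK, which senses unfolded protein in the endoplasmic reticulum, phosphorylate the initiation factor eIF2α, so that bulk translation drops while the transcription factor ATF4 is translated more. ATF4 and its partners then raise genes for amino acid supply, redox balance and, through CHOP, cell death, and pancreatic β cells, which secrete large amounts of insulin, are known to depend on PERK. The genes described here are 10 of this pathway, chosen by symbol, and all 10 were found among the 31053 genes of the count tables. They are the kinase gene Eif2ak3 (PERK), the transcription factor genes Atf4, Atf5 and Ddit3 (CHOP), the feedback gene Trib3, the amino acid genes Asns and Psat1, the nutrient sensor gene Sesn2, the glutathione-degrading enzyme gene Chac1 and the cystine transporter gene Slc7a11.

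Their transcripts were counted in dissociated islet cells of WT mice and of Npc1-/- mice, which the labels call Npc1KO. NPC1 carries cholesterol out of the lysosome, and the Npc1-/- mice, bred from heterozygous parents on the C57BL/6J background, lack it in every cell and not in β cells alone. Each genotype had 1 droplet-based library, made from islets pooled from 3 females aged 2 weeks, and no treatment was named. The islets were trypsinised before capture, and transcripts were counted from their 3′ ends as unique molecular identifiers (UMIs), that is as molecules, so that levels need no division by gene length. Because a genotype is represented by a single library, differences between genotypes were not tested and carry no p. All intervals are exact 95% intervals. Those of levels and ratios take in the error of counting molecules, and those of shares the error of drawing cells from a library. Nothing else is taken in, neither the mice nor the way the islets were prepared.

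The WT library held 8569 barcodes with 114324626 UMIs and the Npc1-/- library 7646 barcodes with 127122035 UMIs, of which 4628 and 4269 barcodes were kept as cells. The libraries shared 12 barcodes, 3 of them kept in both. Cells were classed by the hormone with most UMIs, or by endothelial and stellate markers where no hormone reached 10% of UMIs. In WT and Npc1-/- there were 1833 and 1826 β cells, 1048 and 857 α cells, 189 and 141 δ cells, 411 and 442 cells led by Ppy and Pyy, 437 and 443 endothelial and 246 and 267 stellate cells. The level of Npc1 itself in β cells had a log2 ratio of Npc1-/- over WT of -1.27 (-1.57 to -0.98), on 319 and 143 UMIs.

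The classes set by hormones were checked against genes that had not defined them. β cells were led by Slc2a2, Ucn3 and Mafa, α cells by Ttr, Slc38a5 and Irx1 and δ cells by Ly6h and Hhex. Endothelial cells were led by Plvap and Rgcc and stellate cells by Rgs5 and Acta2. Of these, Plvap, Rgs5 and Acta2 were among the defining markers and are no check. Rgcc in endothelial cells and Myl9, also among the leading genes of stellate cells, were not. The cells with most Ppy and Pyy were led by Tspan8, Folr1 and Clu and had the δ cell genes Ly6h, Fam159b and Hhex among their first 10 genes, so they are called Ppy- and Pyy-led cells and not PP cells. A further hormone reached 10% of UMIs in 56.6% and 71.6% of δ cells and in 26.3% and 32.6% of the Ppy- and Pyy-led cells of WT and Npc1-/-, against 2.24% and 3.23% of β cells. Doublets were not removed from these cells.

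Both libraries held cells with the immediate early and heat shock genes known from enzymatic dissociation, unequally spread. Cells with at least 0.1% of their UMIs from Fos and Hspa1a, called high in Fos and Hspa1a below, were 160 of 1833 β cells in WT (8.73%) and 6 of 1826 in Npc1-/- (0.329%). In α cells they were 24.7% and 2.92%, in endothelial cells 56.1% and 38.8% and in stellate cells 74.4% and 66.7%. The members in β cells are therefore also compared without them. Genotype and preparation cannot be told apart in these libraries.

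Several members carry the same element in their promoters, and these stretches are shown because ATF4 and its C/EBP partners are known to bind it. The C/EBP-ATF composite element TGATGNAA, the palindromic cAMP response element TGACGTCA and the ER stress response element were searched on both strands of the RefSeq windows from 250 bases before to 50 bases after each start (GRCm38.p6). The 10 members had 12 such windows. The composite element stood in the windows of 4 members (Asns, Chac1, Slc7a11 and Trib3) and in 3.97% of all 32851 windows, and no match overlapped another. In the lines below it is in capitals and the rest of each stretch in lower case, read 5′ to 3′ on the strand of the gene.
Asns, chr6:7693210-7693272, minus strand: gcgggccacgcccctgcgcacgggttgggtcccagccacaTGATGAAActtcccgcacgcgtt
Chac1, chr2:119351009-119351096, plus strand: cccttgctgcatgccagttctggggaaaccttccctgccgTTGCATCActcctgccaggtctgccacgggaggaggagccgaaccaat
Slc7a11, chr3:50443614-50443719, minus strand: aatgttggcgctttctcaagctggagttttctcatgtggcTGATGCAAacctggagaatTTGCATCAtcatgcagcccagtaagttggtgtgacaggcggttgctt
The element began 23 bases before the start in Asns and 193 bases before it in Chac1, where it lay on the opposite strand. Slc7a11 had 2 copies on opposite strands, beginning 66 and 47 bases before its start. In Trib3 it lay 15 bases after the RefSeq start, on the opposite strand. The cAMP response element was in 0 of the 12 windows and in 1.79% of all windows, and the ER stress response element in 0 and in 0.119%. A missing match says only that these letters are not in the window. Of the 4 genes with the element, Asns was among the more abundant members in the data that follow, and Chac1, Slc7a11 and Trib3 were the 3 scarcest. Asns was highest in β cells and Trib3 in endothelial cells. The classes of Chac1 and Slc7a11 could not be told apart, so whether these genes share a class is not known.

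The genes are spread over the genome. On GRCm38 Eif2ak3 lies at chr6:70844515-70905245 and Asns at chr6:7675169-7693254, and Trib3 (chr2:152337422-152344032) and Chac1 (chr2:119351229-119354381) are likewise on 1 chromosome without being neighbours. Atf4 lies at chr15:80255184-80257541, Atf5 at chr7:44812256-44816658 and Ddit3 at chr10:127290774-127296288. Sesn2 lies at chr4:132492032-132510501, Psat1 at chr19:15904678-15947337 and Slc7a11 at chr3:49892526-50443614. These spans are from GENCODE, and their starts can differ from the RefSeq starts of the promoter windows. By these spans the composite element of Trib3 (chr2:152344039-152344046) lies before the gene. That of Asns (chr6:7693225-7693232) lies inside it. Ddit3 overlaps Mars on the other strand and a further gene on its own, Atf5 overlaps Nup62 and Il4i1 on the other strand, Sesn2 a predicted gene on its own strand and Slc7a11 one on the other. Whether counting used the strand is not given in the sources used here, and how reads in these overlaps were assigned was not checked.

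The abundance of the 10 genes set what could be compared. Levels are given in CPM, here the UMIs of a gene in all cells of 1 class from 1 library per 1000000 UMIs, leaving out the 6 hormone genes Ins1, Ins2, Gcg, Sst, Ppy and Pyy from the total. In the kept cells Atf4 had 9351 and 8295 UMIs in WT and Npc1-/-, Asns 3127 and 2813, Atf5 2300 and 2078, Ddit3 2023 and 1776, Sesn2 1976 and 2155 and Eif2ak3 1058 and 1210. Psat1 followed with 378 and 336, whereas Chac1 had 86 and 76, Trib3 42 and 44 and Slc7a11 21 and 22. The last 3 genes were therefore near the detection limit in most classes.

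**Figure D1:**
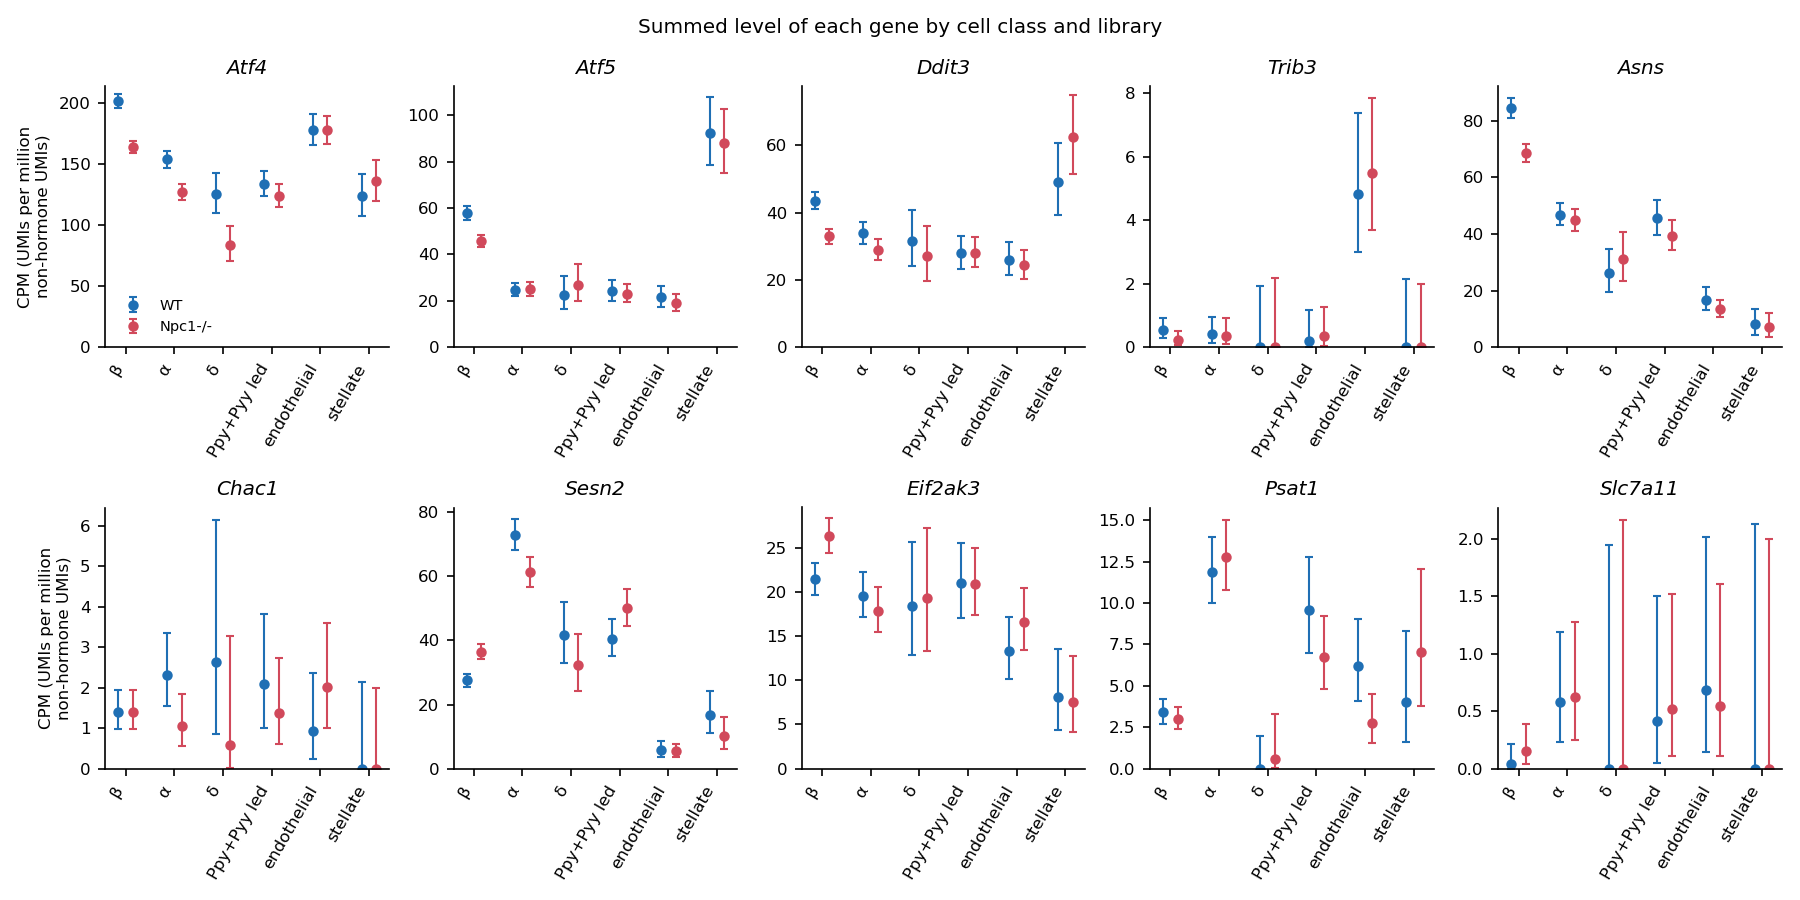
Level of each gene (y axis, CPM without the 6 hormone genes, starting at 0) in the 6 cell classes (x axis) of the WT and the Npc1-/- library; points are summed counts and bars 95% Poisson intervals. Asns was highest in β cells, Sesn2 and Psat1 in α cells, Trib3 in endothelial cells and Atf5 and Ddit3 in stellate cells, in both libraries.

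Eif2ak3, which encodes PERK, was spread evenly over the endocrine classes. Its level was 21.4 (19.7 to 23.3) CPM in WT β cells and 26.3 (24.4 to 28.4) in Npc1-/- β cells. In α cells it was 19.6 and 17.9 in WT and Npc1-/-, in δ cells 18.4 and 19.4 and in Ppy- and Pyy-led cells 21.0 and 21.0. Endothelial cells followed with 13.3 and 16.7 and stellate cells with 8.10 and 7.60. In WT no pair of neighbours in this order differed beyond counting error. In Npc1-/- β cells stood above the next class and endothelial cells above stellate cells.

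Atf4, the central factor of the response, was the most abundant member in every class of both libraries. In WT its level was 201 (196 to 207) CPM in β cells, 178 (165 to 191) in endothelial cells and 154 (147 to 161) in α cells, each above the next beyond counting error. The Ppy- and Pyy-led, δ and stellate cells lay at 134, 125 and 124, and neighbours among them did not differ beyond it. In Npc1-/- the endothelial cells came first with 177 (166 to 189), ahead of β cells with 164 (159 to 169). Stellate cells (136), α cells (127) and Ppy- and Pyy-led cells (124) lay between, and δ cells were last with 83.9 (70.7 to 98.9). Relative to the median gene, the log2 ratio of endothelial over β cells was -0.01 (-0.12 to 0.10) in WT and 0.36 (0.26 to 0.46) in Npc1-/-. The WT order of β above endothelial cells therefore holds in CPM and not by that measure.

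Atf5 and Ddit3 shared a pattern in which stellate cells came first and β cells next. Atf5, a factor related to ATF4 and likewise controlled in translation, had 92.5 and 87.9 CPM in stellate cells of WT and Npc1-/- and 57.8 and 45.8 in β cells. In the other 4 classes it lay between 18.9 and 27.0, with no neighbours told apart. Ddit3, which encodes the pro-apoptotic factor CHOP, had 49.2 and 62.4 in stellate cells and 43.6 and 33.0 in β cells, which differed beyond counting error in Npc1-/- and not in WT. α cells followed with 33.9 and 29.0, and endothelial cells were last with 25.9 and 24.4. Across the 12 sums of class and library the log2 levels of Atf5 and Ddit3 had a Pearson correlation of 0.93, and those of Asns and Eif2ak3 of 0.91. The correlations of Atf4 with other members lay between -0.36 (Sesn2) and 0.28 (Psat1). These 12 points come from 2 libraries and differ in depth, so the correlations are a description.

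Asns, which encodes asparagine synthetase and is a textbook target of ATF4, was highest in β cells among the 6 classes. Its level was 84.3 (80.8 to 88.0) CPM in WT β cells and 68.6 (65.5 to 71.9) in Npc1-/- β cells. α cells had 46.7 and 44.7, Ppy- and Pyy-led cells 45.5 and 39.3 and δ cells 26.3 and 31.1. Endothelial cells had 16.8 and 13.4 and stellate cells 8.10 and 7.06, each below the class before it. Sesn2, whose product binds leucine and restrains mTORC1, was instead highest in α cells, with 72.8 (68.0 to 77.7) in WT and 61.2 (56.7 to 65.9) in Npc1-/-. β cells had 27.6 and 36.5 and endothelial cells, the lowest class, 5.74 and 5.49.

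Psat1, which encodes a transaminase of serine synthesis, set α cells apart from β and δ cells. It had 144 and 144 UMIs in the α cells of WT and Npc1-/-, 11.9 (10.0 to 14.0) and 12.8 (10.8 to 15) CPM, against 3.40 and 3.00 in β cells. In δ cells it was at the detection limit. There were 0 UMIs in 189 WT δ cells, which allows up to 1.59% of cells with a UMI, though not a limit on cells that express the gene, and a level at least 2.15-fold lower than in β cells (limit of 3 counts over the class), and 1 UMI was found in 141 Npc1-/- δ cells. Of α cells 10.7% in WT and 12.8% in Npc1-/- had a Psat1 UMI, and of β cells 3.87% and 3.45%. In cells thinned to 5000 UMIs the WT shares were 3.65% (2.58 to 5.0) and 0.553% (0.266 to 1.02), with 35 α and 26 β cells too shallow to be used. These 5000 UMIs included the hormone genes, which take a different share of UMIs in each class. Thinned shares of different classes are therefore not at equal depth of the other genes.

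Trib3, a pseudokinase induced by ATF4 and CHOP that damps the response, was found mainly in endothelial cells. It had 21 UMIs in 437 WT and 30 UMIs in 443 Npc1-/- endothelial cells, 4.82 (2.98 to 7.37) and 5.49 (3.71 to 7.84) CPM. In β cells there were 14 and 6 UMIs, or 0.547 and 0.228 CPM, and in δ and stellate cells 0 in both libraries. No endothelial cell held more than 2 of these UMIs. They were in 4.81% and 6.32% of endothelial cells and in 0.709% and 0.329% of β cells. After thinning the endothelial shares were 3.08% (1.60 to 5.31) and 1.46% (0.538 to 3.15), with 47 and 32 cells left out, and the β cell share was 0.166% in either library. Hormone genes were again part of the thinned UMIs, so these shares do not compare the classes at equal depth of the other genes. No class is known to lack these stress genes altogether, so the share that free RNA gives could not be measured on such a class.

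Chac1, whose product breaks down glutathione, had 36 and 37 UMIs in β cells, 28 and 12 in α cells and 0 in stellate cells, and no neighbours in its order could be told apart. Slc7a11, the exchanger of cystine and glutamate, had at most 7 UMIs in any class of either library, and its classes could not be ranked.

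Set against β cells of the same library and relative to the median gene, few members passed 2-fold in both libraries. The median gene itself lay between -0.25 and 0.14 on the log2 scale in these comparisons. Members with at least 50 UMIs in the compared cells entered, 9 of them for endothelial cells and 8 for each other class. In α cells 1 of 8 was higher (Psat1, 3.31-fold in WT and 4.15-fold in Npc1-/-) and 0 were lower, against 8.18% and 6.66% of all genes. Sesn2 was 2.50-fold higher in WT α cells but 1.64-fold in Npc1-/-. In δ cells 0 were higher and 2 lower (Asns and Psat1), against 7.65% and 5.83%. That of Psat1 rests on the 0 and 1 UMIs above, and Psat1 reached 50 UMIs there only through its β cell UMIs. Among δ cells without a further hormone at 10% of UMIs the 2 were Atf4 and Psat1. In Ppy- and Pyy-led cells 1 was higher (Psat1) and 1 lower (Atf5), against 7.51% and 4.53%. With 1 or 2 members past the fold, these shares say little beyond the genes named.

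Endothelial and stellate cells differed from β cells in far more genes. In endothelial cells 1 of 9 members was higher, where 20.6% of genes were, and this was Trib3, at a log2 ratio of 3.29 (2.26 to 4.40) in WT and 4.75 (3.55 to 6.39) in Npc1-/-. Trib3 reached 50 UMIs only through its endothelial UMIs, 21 and 30 against 14 and 6 in β cells. Its entry into this count therefore came from the class where it is high, and the count is no result about the members. The 3 lower ones were Asns, Sesn2 and Atf5, where 23.3% of genes were lower. Asns was at -2.15 (-2.52 to -1.83) and -2.10 (-2.47 to -1.77). Sesn2 was at -2.07 (-2.73 to -1.52) and -2.46 (-3.06 to -1.96). In stellate cells 0 of 8 were higher and 3 met the rule as lower, against 17.8% and 20.8%. Of these, 2 had more than 3 UMIs in each sum, Asns (14 and 13 UMIs in stellate cells of WT and Npc1-/-) and Eif2ak3 (14 and 14). All 3 reached 50 UMIs only through their β cell UMIs, so this count is no result about the members. Chac1 had 0 UMIs in stellate cells. The limit of 3 counts, 1.73 and 1.63 CPM, lies above its β cell level, so Chac1 is not read as lower and no fold is given. In endothelial cells, compared without the cells high in Fos and Hspa1a, Asns and Sesn2 were still past 2-fold lower. Atf5 was then not past it in both libraries once taken relative to the median gene. Its levels before that step were 23.1 against 57.1 CPM in WT and 19.6 against 45.8 in Npc1-/-. Trib3 no longer reached 50 UMIs there, with 8 endothelial and 10 β cell UMIs in WT and 18 and 6 in Npc1-/-. Its levels were still far apart, 4.20 against 0.425 CPM in WT and 5.61 against 0.228 in Npc1-/-.

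**Figure D2:**
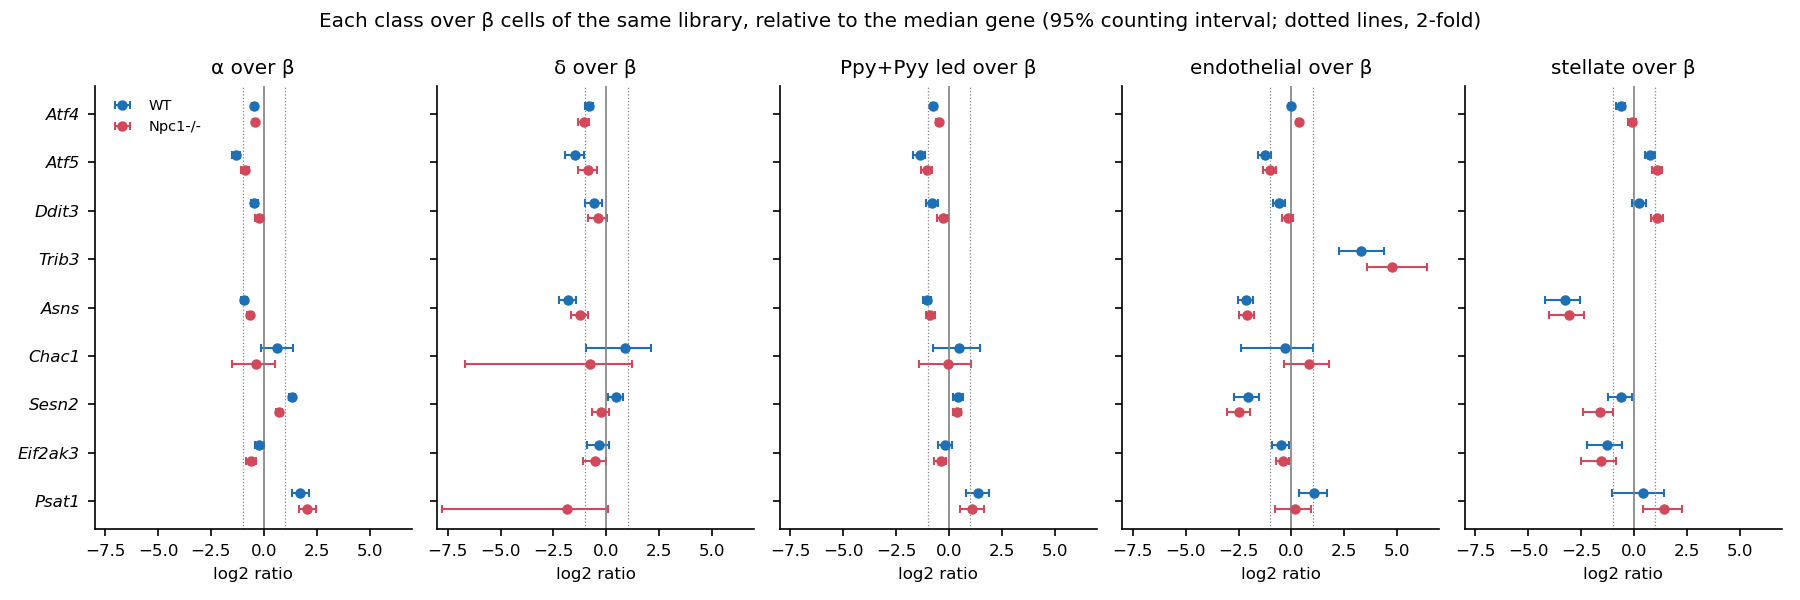
Log2 ratio (x axis) of each member (rows) in 5 classes over β cells of the same library, relative to the median gene; points are the WT and Npc1-/- libraries, bars 95% counting intervals and dotted lines 2-fold. Psat1 lies to the right in α cells (1.73 and 2.05), Trib3 in endothelial cells and Asns to the left in endothelial and stellate cells, and ratios with 0 UMIs in the class are not drawn.

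The next comparison asked whether the members differed between genotypes, class by class. No member passed 1.5-fold in any of the 6 classes in either direction. In β cells 8 members held at least 50 UMIs over both libraries, and 0 were higher and 0 lower, while 3.59% and 3.15% of 12856 genes were. In α cells it was 0 of 7 (1.95% and 2.02% of genes), in δ cells 0 of 6 (3.34% and 3.01%), in Ppy- and Pyy-led cells 0 of 7 (2.55% and 2.80%), in endothelial cells 0 of 7 (2.19% and 3.08%) and in stellate cells 0 of 3 (3.18% and 3.52%). Below this fold several members differed by more than counting error, mostly in β cells.

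In β cells the transcription factor genes and Asns were lower in Npc1-/-. Atf4 was at 201 and 164 CPM in WT and Npc1-/- (5153 and 4321 UMIs), a log2 ratio of -0.37 relative to the median gene (-0.43 to -0.31). Atf5 was at 57.8 and 45.8 CPM (-0.41, -0.52 to -0.30). Ddit3 was at 43.6 and 33.0 CPM (-0.48, -0.61 to -0.35). The 3 genes thus stood at 0.774, 0.752 and 0.718 of WT when each is taken relative to the median gene. Asns, with 84.3 and 68.6 CPM, was at -0.37 (-0.46 to -0.28) relative to the median gene.

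Sesn2 and Eif2ak3 were higher in Npc1-/- β cells. Sesn2 was at 27.6 and 36.5 CPM (705 and 960 UMIs), a log2 ratio of 0.33 (0.19 to 0.47). Eif2ak3 was at 21.4 and 26.3 CPM (0.22, 0.06 to 0.39). Psat1 (-0.25, -0.71 to 0.20) and Chac1 (-0.08, -0.78 to 0.63) had intervals that include no difference, and Trib3 with 14 and 6 UMIs and Slc7a11 with 1 and 4 were too scarce to enter. At a fold of 1.2, chosen after the values had been seen, 4 of 8 members were lower (Atf4, Atf5, Ddit3 and Asns) where 13.9% of genes were, and 1 was higher (Sesn2) where 15.4% were. The median over the 8 members was -0.31, where that over all genes is 0 by the centring. How much separate libraries of the same genotype would differ was not tested.

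The pattern was alike without the cells high in Fos and Hspa1a. Atf4 was then at -0.32 (-0.38 to -0.25), Atf5 at -0.39 (-0.51 to -0.28) and Ddit3 at -0.40 (-0.53 to -0.27). Asns was at -0.39 (-0.48 to -0.30) and Sesn2 at 0.30 (0.16 to 0.45). At 1.2-fold 5 of 8 members were lower (Psat1 joined at -0.33, with an interval that includes no difference) where 14.0% of genes were, and 1 was higher where 15.9% were. The remaining β cells still differed in Fos (-1.35) and Hspa1a (-1.64), and the part of this difference in the members' ratios was not tested.

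The share of β cells with a UMI was lower in Npc1-/- for Atf4, Atf5, Ddit3 and Asns, in thinned and in unthinned cells. Cells of 1 library are not replicates of a genotype, and the share of all genes with such a difference is not given. For this, β cells were thinned to 5000 UMIs, hormone genes included, with 26 and 22 cells of WT and Npc1-/- left out. An Atf4 UMI was then found in 36.7% (34.5 to 39.0) of WT and 30.6% (28.5 to 32.8) of Npc1-/- cells. An Asns UMI was found in 18.0% (16.2 to 19.8) and 14.2% (12.7 to 15.9). A Ddit3 UMI was found in 9.80% (8.46 to 11.3) and 7.21% (6.06 to 8.50). For Atf5 the shares were 11.6% (10.2 to 13.2) and 10.2% (8.84 to 11.7). They were 7.30% (6.15 to 8.60) and 9.09% (7.80 to 10.5) for Sesn2. For Eif2ak3 they were 5.09% (4.12 to 6.21) and 6.71% (5.60 to 7.96). Overlap of separate intervals, or its absence, is no test of a difference in share, and the differences were not tested. The unthinned shares were 87.1% and 85.7% for Atf4, 40.3% and 34.8% for Ddit3, 64.4% and 59.5% for Asns, 46.2% and 41.8% for Atf5, 30.6% and 39.0% for Sesn2 and 25.8% and 30.9% for Eif2ak3. No β cell held more than 0.986% of the UMIs of Atf4, Atf5, Ddit3, Asns, Sesn2 or Eif2ak3 in its library.

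**Figure D3:**
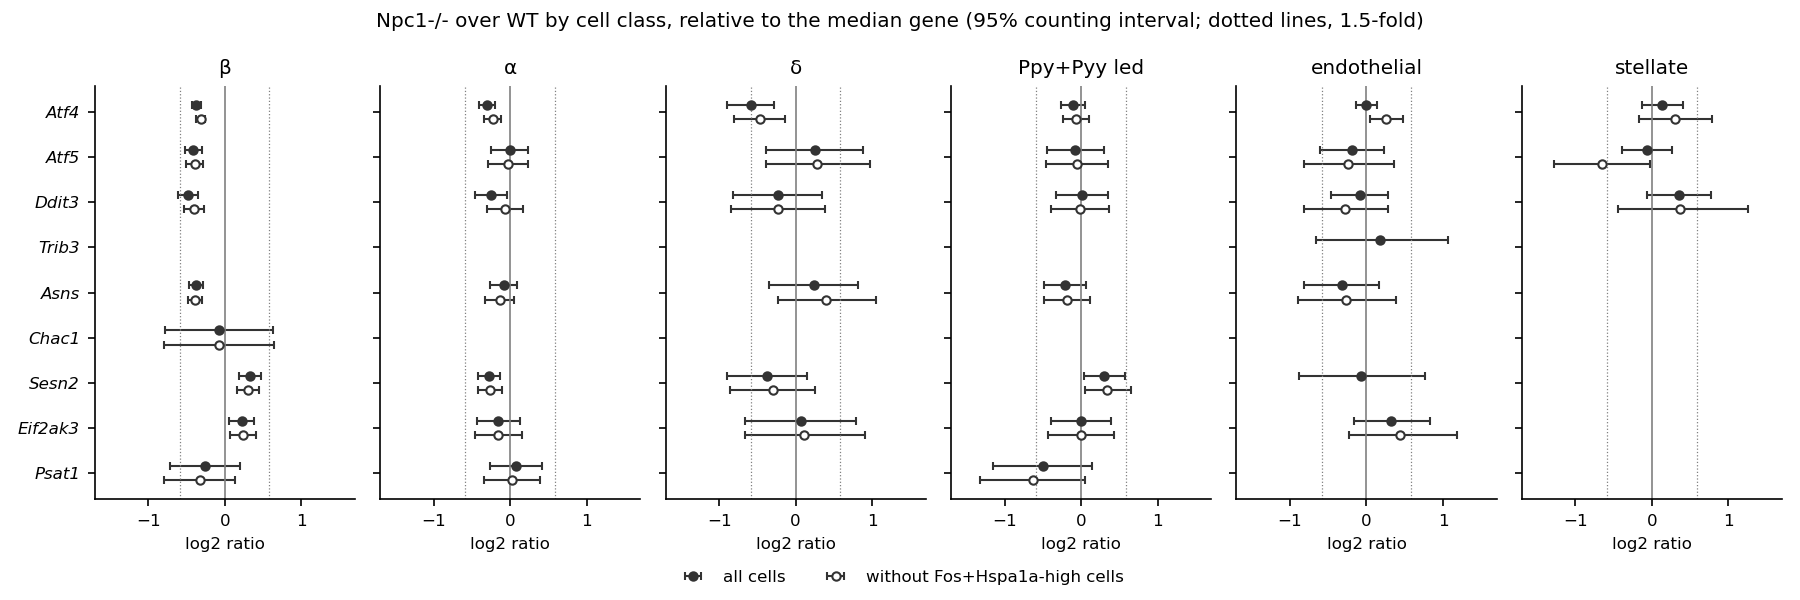
Log2 ratio of Npc1-/- over WT (x axis) for the members with at least 50 UMIs (rows) in the 6 classes, relative to the median gene; filled points use all cells, open points leave out cells high in Fos and Hspa1a, bars are 95% counting intervals and dotted lines 1.5-fold. In β cells Atf4, Atf5, Ddit3 and Asns lie between -0.48 and -0.37 and Sesn2 at 0.33, with similar open points.

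The other endocrine classes shared the lower Atf4 in part. In α cells Atf4 was at 154 and 127 CPM (-0.30, -0.40 to -0.20) and at -0.23 (-0.34 to -0.12) without the cells high in Fos and Hspa1a. Sesn2, higher in Npc1-/- β cells, was lower in Npc1-/- α cells, at 72.8 and 61.2 (-0.27, -0.42 to -0.13). α cell Ddit3 was at -0.25 (-0.46 to -0.04) and at -0.07 (-0.31 to 0.17) without those cells, and Atf5, Asns, Eif2ak3 and Psat1 had intervals that include no difference. In δ cells Atf4 was at 125 and 83.9 CPM (238 and 143 UMIs), the largest ratio of any member that entered in the 6 classes (-0.58, -0.89 to -0.28), just short of 1.5-fold and past it with a stricter cell filter. The Ppy- and Pyy-led cells showed no difference in Atf4 beyond counting error (-0.11, -0.26 to 0.05) and had more Sesn2 in Npc1-/- (0.31, 0.04 to 0.58).

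In endothelial cells the 7 members that entered had intervals that include no difference. Atf4 was at 178 and 177 CPM (0.00, -0.14 to 0.14). Without the cells high in Fos and Hspa1a it was higher in Npc1-/- (0.26, 0.05 to 0.48), on 274 and 553 UMIs. In stellate cells Atf4, Atf5 and Ddit3 entered, and Ddit3 was at 0.35 (-0.07 to 0.77). Atf4 was thus lower in Npc1-/- beyond counting error in β, α and δ cells, while the difference between classes was not tested.

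The β cells of the 2 libraries also differed in make-up. Those with at least 1% of UMIs from Ppy and Pyy, called rich below, were 491 of 1833 in WT (26.8%) and 821 of 1826 in Npc1-/- (45.0%), with 172 and 195 cells near this limit. Rich cells had less of the β cell maturity genes Ucn3 (-1.60 and -1.71) and Mafa (-1.59 and -1.55) in WT and Npc1-/-. Summed acinar markers in β cells were 155 and 39.8 CPM and summed immune markers 64.9 and 89.5, and their part in the members' ratios was not tested.

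Within a library the rich β cells had less Atf4, Atf5 and Asns than the poor ones. Atf5 was at 40.9 in rich and 63.9 in poor cells of WT, in CPM (-0.68, -0.87 to -0.49), and at 37.9 in rich and 52.2 in poor cells of Npc1-/- (-0.49, -0.67 to -0.32). Asns was at -0.40 (-0.55 to -0.25) and -0.28 (-0.42 to -0.14). Sesn2 was at 0.50 (0.27 to 0.72) and 0.19 (0.00 to 0.37). Atf4 was lower by less, at -0.22 (-0.32 to -0.13) in WT and -0.12 (-0.21 to -0.04) in Npc1-/-. Ddit3 was at 0.01 (-0.19 to 0.20) and -0.34 (-0.54 to -0.14), and Eif2ak3 at 0.18 (-0.09 to 0.45) and -0.08 (-0.30 to 0.14). Psat1 was at -0.91 (-1.89 to -0.11) in WT, on 14 UMIs in rich and 73 in poor cells. In Npc1-/- it was at -0.42 (-1.13 to 0.26), which includes no difference. Atf4, Atf5, Asns and Sesn2 thus differed between rich and poor cells in the direction in which they differed between genotypes. The part of this make-up in the ratios between genotypes was not tested. Past 1.5-fold in both libraries, 1 of 8 members was higher (Chac1, on 36 and 37 UMIs with intervals that include no difference) and 0 were lower, against 3.69% and 2.85% of genes.

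Between genotypes the poor cells alone gave Atf4 at -0.37 (-0.44 to -0.29), Ddit3 at -0.33 (-0.49 to -0.17) and Asns at -0.34 (-0.46 to -0.23). Their Atf5 was lower in Npc1-/- too, at 63.9 CPM in WT and 52.2 in Npc1-/-, past 1.2-fold. Their Sesn2 was at 0.40 (0.21 to 0.58) and their Eif2ak3 at 0.31 (0.11 to 0.52). The rich cells alone gave Atf4 at -0.26 (-0.37 to -0.16), Asns at -0.22 (-0.39 to -0.05) and Ddit3 at -0.67 (-0.90 to -0.44), past 1.5-fold. Atf4, Ddit3 and Asns were therefore lower in Npc1-/- within both parts. In the rich cells Sesn2 was at 0.09 (-0.13 to 0.33), Eif2ak3 at 0.06 (-0.22 to 0.35) and Atf5 at -0.17 (-0.39 to 0.05), with intervals that include no difference.

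**Figure D4:**
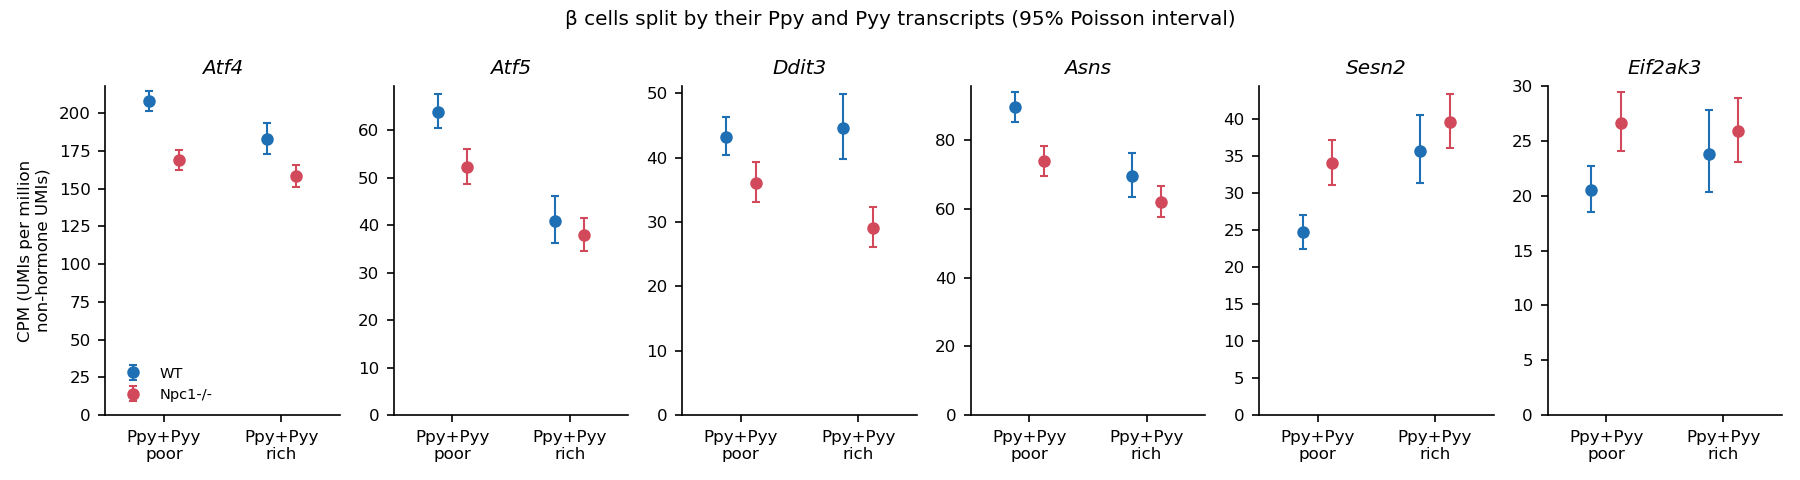
Level of 6 members (y axis, CPM without the hormone genes, starting at 0) in β cells with under 1% (poor) and at least 1% (rich) of UMIs from Ppy and Pyy, for WT and Npc1-/-; bars are 95% Poisson intervals. Atf4, Ddit3 and Asns are lower in Npc1-/- in both parts, and Atf5 is lower in the rich than in the poor cells.

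The cells high in Fos and Hspa1a were also set against the other cells of their own class and library, a comparison within a genotype. In WT β cells (160 against 1673) Ddit3 was at 71.2 and 41.2 CPM, a log2 ratio of 0.79 (0.52 to 1.04). Atf4 was at 290.1 and 194 (0.58, 0.45 to 0.70), just short of 1.5-fold and past it at a limit of 2000 in place of 1000 UMIs of Fos and Hspa1a per 1000000. Both factor genes were thus higher in the high cells, while Asns (-0.22, -0.48 to 0.01) and Sesn2 (-0.39, -0.88 to 0.04) lay below the other cells with intervals that include no difference. Of 7 members that entered, 1 was past 1.5-fold higher (Ddit3) and 1 lower (Psat1, on 3 UMIs with an interval that includes no difference), against 6.15% and 5.59% of genes.

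In α cells of WT (259 against 789) Ddit3 and Atf4 were again higher. Ddit3 was at 46.8 and 30.0 CPM (0.64, 0.32 to 0.94) and Atf4 at 186 and 144 (0.36, 0.21 to 0.50), and Asns was lower (-0.34, -0.66 to -0.04). In WT endothelial cells (245 against 192) Atf4 was at 0.51 (0.30 to 0.73) and Ddit3 at -0.08 (-0.63 to 0.49). In those of Npc1-/- (172 against 271) Atf4 was at 0.09 (-0.10 to 0.28) and Ddit3 at 0.31 (-0.21 to 0.82). In stellate cells of Npc1-/- Atf5 was at 105 and 60.6 CPM (0.79, 0.28 to 1.34), whereas in those of WT it was at -0.06 (-0.55 to 0.46). Asns was in no class higher beyond counting error, and differences between classes or libraries were not tested.

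**Figure D5:**
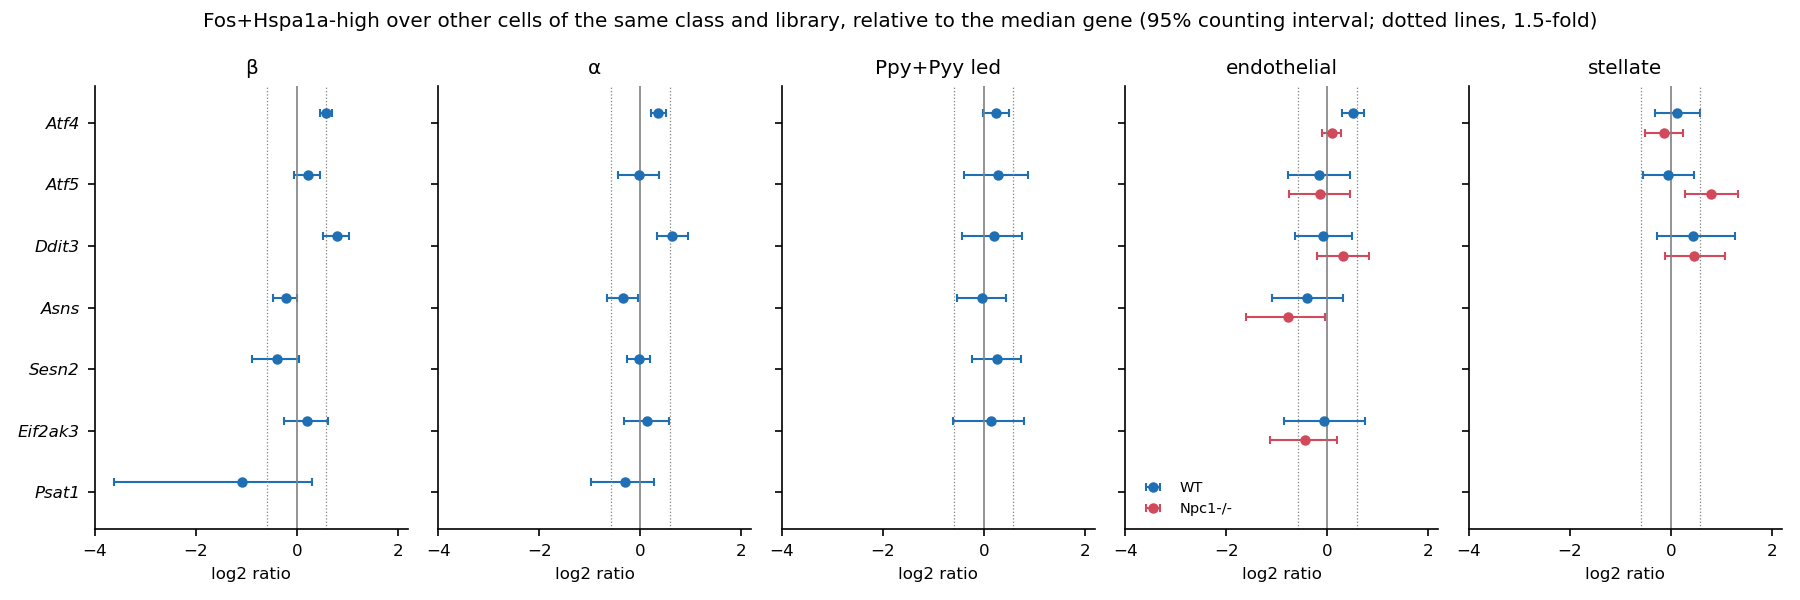
Log2 ratio (x axis) of cells high in Fos and Hspa1a over the other cells of the same class and library for the members with at least 50 UMIs (rows), relative to the median gene, where both sides held at least 50 cells; bars are 95% counting intervals and dotted lines 1.5-fold. Ddit3 lies at 0.79 in WT β cells and 0.64 in WT α cells, and Asns below 0.

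The rest of the pathway was described from lists of its parts, for β cells of Npc1-/- over WT at 1.5-fold, which 3.59% of all genes passed as higher and 3.15% as lower. Of 15 kinases and eIF2 regulators 0 were higher and 1 lower, the phosphatase subunit gene Ppp1r15a (GADD34), at 45.0 and 29.7 CPM (-0.67, -0.81 to -0.54). Without the cells high in Fos and Hspa1a 0 of 15 were past the fold, and in WT Ppp1r15a was itself higher in those cells (1.55, 1.33 to 1.75). The other eIF2 kinase genes were somewhat higher in Npc1-/-, Eif2ak4 (GCN2) at 0.40 (0.11 to 0.69), Eif2ak2 (PKR) at 0.30 (0.14 to 0.47) and Eif2ak1 (HRI) at 0.23 (0.05 to 0.40). Of 7 partner and feedback factors that entered 2 were lower, Ddit4 (-0.68, -0.84 to -0.51) and Atf3. Atf3 had 140 UMIs in WT and 2 in Npc1-/- (-5.93, -9.31 to -4.37), and 80 of the WT UMIs were in the 160 cells high in Fos and Hspa1a.

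Among the target genes a few enzymes and a transporter of amino acid supply were past the fold. Of 18 such genes that entered 3 were lower, where 3.15% of all genes were, Phgdh of serine synthesis (7.58 and 4.03 CPM, -0.99, -1.34 to -0.64), Cbs of transsulphuration (-1.11, -1.44 to -0.80) and the neutral amino acid transporter gene Slc1a4 (-0.90, -1.72 to -0.14). The same 3 were past it without the cells high in Fos and Hspa1a, and the median of the list was -0.21. Slc3a2, the shared chain of several amino acid transporters, was at -0.51 (-0.57 to -0.46) and Mthfd2 of mitochondrial folate metabolism at -0.52 (-0.66 to -0.39), short of the fold. The highest genes over all lists were Eif2ak4, Mthfd1l (0.37, 0.18 to 0.56) and Slc1a5 (0.34, -0.25 to 0.96), and the lowest Atf3, Hspa1a (-2.32) and Dusp1 (-2.20). Of 14 tRNA synthetase genes 0 were past 1.5-fold either way (median -0.10), and of 10 secreted and other targets likewise 0 (median -0.10).

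The listed genes of the ATF6 and IRE1 arms, the other branches of the unfolded protein response, had the lowest median of the pathway lists. Of 13 genes 4 were past 1.5-fold lower and 0 higher, where 3.15% and 3.59% of all genes were, Sdf2l1 (454 and 256 CPM, -0.90, -0.94 to -0.86), Creld2 (-0.72, -0.79 to -0.65), Calr (-0.66, -0.69 to -0.63) and Pdia4 (-0.60, -0.66 to -0.53). Hspa5, which encodes the chaperone BiP, was at -0.56 (-0.58 to -0.54). The median of the 13 genes was -0.49, and -0.51 without the cells high in Fos and Hspa1a. Of the 15 genes of the dissociation response 13 were lower (median -1.58) and 11 without those cells (median -1.11). Fos and Hspa1a, which set the limit for those cells, are among the 15 and among the 11. The share of all genes past 1.5-fold without those cells is not given.

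The genes most like a member in their pattern over the 12 sums of class and library were found by Pearson correlation of log2 levels with 1 CPM added, over 12707 genes. Dgkg was most like Atf5 (0.97), Apobec1 most like Ddit3 (0.94) and Qdpr most like Asns (0.98). Nsd2 was most like Sesn2 (0.98), Tarsl2 most like Eif2ak3 (0.98), Dnmt3b most like Atf4 (0.95) and Med18 most like Psat1 (0.93). Atf5 was itself among the 3 genes most like Ddit3, at 0.93.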

How the data were processed

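The deposited files hold UMI counts for each gene and barcode, not normalized by the authors. The submitters' processing notes name Cell Ranger 3.1.0, Seurat 4.0.3 and mm10. The labels and the paper differ on the version of the 10x kit. For this report, barcodes with over 1000 genes, under 50000 UMIs, under 10% mitochondrial and at most 0.1% haemoglobin UMIs were kept. Cells without a leading hormone needed at least 5 UMIs from at least 3 endothelial or stellate markers. Log2 ratios had 0.5 counts added and were taken relative to the median gene over genes with at least 50 UMIs. Intervals are Poisson for levels, conditional binomial for ratios and Clopper-Pearson for shares. The tools were Python 3.11.15 with numpy 2.4.6, scipy 1.17.1, pandas 2.3.3 and scanpy 1.11.5 (its Scrublet), and R 4.3.3 with edgeR 4.0.16 (TMM factor only). On simulated counts for the β cell comparison between genotypes (12856 genes, 200 changed), intervals covered 96.5% of changed and 95.6% of unchanged genes. This checked how the intervals were calculated and gave no measure of differences between mice or preparations. Members, lists, motifs and limits were chosen with earlier results of these data known. Named were the members, the 3 highest and 3 lowest list genes in β cells and list genes past a fold. Slc3a2, Mthfd2, Hspa5 and the eIF2 kinases other than PERK were added after their values were seen. Of 15 tRNA synthetase symbols 14 were found.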

Additional observations from a re-analysis of the deposited data

Results flagged for a closer look

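Sesn2 lay on opposite sides of WT in different classes of the Npc1-/- library, beyond counting error in each. Its log2 ratio of Npc1-/- over WT was 0.33 in β cells and -0.27 in α cells, so that β minus α was 0.60. In Ppy- and Pyy-led cells it was 0.31, so that this class minus α was 0.58. With 1 library per genotype these differences between classes were not tested.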

How the results depend on the processing

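No paired analysis was possible because each genotype has 1 library, and for the same reason no library could be left out. No value reversed under any alternative that was run. Between genotypes at 1.5-fold, where the count was 0 in every class, some settings gave calls. In β cells it was 1 with a looser cell filter (Psat1), a stricter one (Ddit3), at least 20 UMIs (Trib3) or only Ppy- and Pyy-rich cells (Ddit3), and 2 with no filter on UMIs (Trib3 and Slc7a11). In α cells it was 1 (Chac1) at 20 UMIs or with no filter. In δ cells it was 1 (Atf4) with the stricter cell filter, a leading hormone of at least 20%, the mean over cells, thinning to 5000 UMIs or 20 UMIs, and 3 with no filter. In Ppy- and Pyy-led cells it was 1 (Psat1) without cells high in Fos and Hspa1a and with the looser and the stricter filter. In endothelial cells it was 1 (Psat1) at 20 UMIs and 2 with no filter. In stellate cells it was 1 without cells high in Fos and Hspa1a (Atf5) or with the looser filter (Sesn2), and 2 with the stricter filter, 20 UMIs or no filter. The 5 β cell genes past 1.2-fold became 1 (Ddit3) in only Ppy- and Pyy-rich cells, and 7 (Eif2ak3 and Psat1 added) in only poor ones. The share of all genes past the fold is not given for these settings, so the counts are no result about the members as a set.

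Against β cells at 2-fold, α cells went from 1 to 2 with no filter. δ cells went from 2 (Asns and Psat1) to 4 with a hormone of at least 20% or no filter, and to 1 when thinned, which was Atf5. With a further hormone under 10% they had 2, with Atf4 in place of Asns. Ppy- and Pyy-led cells went from 2 to 1 with either cell filter or without centring on the median gene, and to 0 when thinned. Endothelial cells went from 4 to 2 without cells high in Fos and Hspa1a, where Atf5 missed the fold and Trib3 the 50 UMIs. Stellate cells went from 3 to 2 when thinned and 4 with no filter. Among β cells of WT, those high in Fos and Hspa1a went from 2 (Ddit3 and Psat1) to 4 with no filter and to 3 with a hormone of at least 20% (Atf4 added) or a limit of 2000 per 1000000 UMIs (Atf4, Ddit3 and Asns). When thinned they had Atf4 and Ddit3. Ppy- and Pyy-rich cells went from 1 to 0 when thinned or with a limit of 2%. Here too the share of all genes past the fold in each setting is not given. The cause of the other changes was not tested. As CPM of all UMIs, hormone genes included, 56 of the levels moved by more than their interval and 64 did not.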

Other observations

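Cells outside the 6 classes are described by their marker genes and are few, so these are values with no comparison. Psat1 had 104 CPM in 30 cells of WT and 66.9 in 36 of Npc1-/- led by Schwann cell markers, on 22 and 16 UMIs, where α cells had 11.9 and 12.8. Atf5 had 85.9 CPM in 63 cells of WT and 108 in 64 of Npc1-/- led by fibroblast markers, where stellate cells had 92.5 and 87.9. Slc7a11 had 3.88 and 8.81 CPM in 216 and 35 cells led by immune markers, on 6 and 5 UMIs. Asns had 89.8 CPM in 3 cells of WT and 197 in 9 of Npc1-/- led by acinar markers, on 2 and 32 UMIs, and 38.5 and 43.2 CPM in 45 and 118 cells led by duct markers, where β cells had 84.3 and 68.6.

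β cells with at least 10% mitochondrial UMIs, which had been left out, numbered 82 in WT and 60 in Npc1-/-. Their Atf4 was 153 and 145 CPM and their Ddit3 39.0 and 31.6 CPM.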
